A study of Mus musculus with 2 samples.

Results

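Tall compact peaks of histone H3 lysine 9 trimethylation (H3K9me3) were taken from 1 ChIP-seq peak list of mouse intestinal stem cells. They were chosen by measured values: a normalized tag count of at least 50, a width under 1500 bp and at most 10 tags of the control library in the same region, on chromosomes 1 to 19 or X. A normalized tag count is the ChIP library's tags in a peak after the authors' scaling, in which 1 tag is worth 1.0476. Of 39886 peaks on these chromosomes, 982 met the 3 limits (2.46%), out of 40119 in the whole list. They held 5.35% of the tags and 1.27 Mb, or 3.48% of the covered sequence. Tag count, width, control tags and the fold made from them are therefore given as a description, and gene context, position and neighbours are what the choice did not use.

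The series has 1 H3K9me3 library and 1 control library, which carries the word input in its name and IgG as its antibody. Both came from sorted GFP high, CD24 low cells of Lgr5-EGFP-IRES-creERT2;setdb1fl/fl mice (C57BL/6, 8 weeks old, 12 mice). In this model GFP and a tamoxifen-activated Cre are driven from the Lgr5 locus and Setdb1, an H3K9 methyltransferase, carries loxP-flanked alleles. The labels do not say whether Setdb1 had been deleted in these cells. With 1 library of each kind and no replicate, no test was made: intervals are 95% exact intervals (Clopper-Pearson for shares, Poisson for tags) and cover counting error only, and differences between peak classes were not tested. A peak list cannot check the cell type by expression.

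H3K9me3 is laid down by methyltransferases such as SETDB1 and SUV39H1 and bound by HP1 proteins, and it marks silent chromatin. In somatic cells it is known for covering transposable elements, imprinting control regions, clusters of zinc finger genes and some promoters of germline genes. SETDB1 is brought to many of these places through KRAB zinc finger proteins and the co-repressor TRIM28. Repeats were not analysed here.

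The 200 bases before the start are shown for 5 genes whose start lies under a tall compact peak, because these are stretches that the peaks covered. The 5 are a selection from 17 protein-coding genes with a peak at the start, most of which are not on the germline list used below. All 5 are known from germ cells or meiosis, and 3 of them are on that list. The stretches run 5′ to 3′ on the gene's own strand, from RefSeq on GRCm38.p6, and capitals mark each CG dinucleotide. Dazl (chr17:50293621-50293820, minus strand) holds 18 of them, Bhmg1 (chr7:19118345-19118544, minus strand) 26, Rpl10l (chr12:66284402-66284601, minus strand) 6, Slc25a31 (chr3:40708671-40708870, plus strand) 18 and Dnajb3 (chr1:88205749-88205948, minus strand) 11. The start of Bhmg1 used here is an internal one: the annotated gene reaches 19118531, so most of its stretch lies inside the gene span.
Dazl: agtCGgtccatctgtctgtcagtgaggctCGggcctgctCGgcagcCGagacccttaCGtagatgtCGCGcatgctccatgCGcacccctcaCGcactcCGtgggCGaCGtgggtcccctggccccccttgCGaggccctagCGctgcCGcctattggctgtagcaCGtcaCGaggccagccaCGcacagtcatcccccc
Bhmg1: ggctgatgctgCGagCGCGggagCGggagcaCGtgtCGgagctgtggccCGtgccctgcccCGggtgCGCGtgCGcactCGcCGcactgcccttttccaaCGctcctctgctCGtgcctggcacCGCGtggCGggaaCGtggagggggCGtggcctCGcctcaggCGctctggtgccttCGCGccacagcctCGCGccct
Rpl10l: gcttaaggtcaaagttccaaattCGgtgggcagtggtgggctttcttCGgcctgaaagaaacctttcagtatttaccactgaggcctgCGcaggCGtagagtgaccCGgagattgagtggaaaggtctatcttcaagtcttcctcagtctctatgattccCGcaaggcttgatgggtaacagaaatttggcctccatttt
Slc25a31: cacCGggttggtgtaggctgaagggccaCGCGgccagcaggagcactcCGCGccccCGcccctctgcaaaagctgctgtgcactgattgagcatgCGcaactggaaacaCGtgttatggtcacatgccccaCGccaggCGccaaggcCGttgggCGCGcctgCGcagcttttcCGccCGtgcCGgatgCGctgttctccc
Dnajb3: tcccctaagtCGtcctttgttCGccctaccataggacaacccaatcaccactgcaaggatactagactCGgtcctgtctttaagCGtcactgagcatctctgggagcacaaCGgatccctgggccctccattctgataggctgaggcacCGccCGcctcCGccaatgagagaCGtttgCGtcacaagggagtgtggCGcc

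Dazl, an RNA-binding protein needed for germ cell development, lay under the tallest of the 982 peaks (chr17:50293061-50294491). That peak held a normalized tag count of 133.0, which is 127 tags (106 to 151), in 1430 bp, against 9 control tags and a fold of 9.66 over the control. It ran from 871 bp upstream of the gene start to 559 bp inside the gene, and the next peak of the list was 43.6 kb away. Bhmg1, also called Meiosin and known for starting meiosis, had a peak of 61.3 normalized tags (chr7:19117672-19118962, 1290 bp, 5.5 control tags, fold 7.28) from 618 bp upstream to 672 bp downstream of that internal start. An end of Fbxo46, an F-box gene, lies 897 bp from the same peak.

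Rpl10l, a copy of a ribosomal protein gene used in the testis, had 52.4 normalized tags (50 tags, 37.1 to 65.9) over its start, against 3 control tags (chr12:66283721-66284921, fold 11.4). Slc25a31, the ADP/ATP carrier of male germ cells, had 51.3 normalized tags (49 tags, 36.3 to 64.8) against 4.5 control tags (chr3:40708497-40709682, fold 7.45). The intervals of these 2 peaks overlapped each other but not that of the Dazl peak. The choice used the tag count and Dazl has its highest value, so this is a description and not a test. Dnajb3, a co-chaperone of male germ cells, had 56.6 normalized tags against 7 control tags (chr1:88204909-88206121, fold 5.28). The Rpl10l and Slc25a31 peaks stood alone, with the next peak 118 kb and 90.1 kb away.

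For the whole germline list of 59 genes, 6 had a tall compact peak in the gene or within 5 kb of it (10.2%, 3.82 to 20.8%), beside 343 of 21627 protein-coding genes (1.59%). Tall wide peaks, with the same tag and control limits but 1500 bp or more, touched 5 of the 59 (8.47%), beside 5.18% of protein-coding genes. Of the 6 genes, Sycp1, a synaptonemal complex protein, had 57.1 normalized tags (8.5 control tags, fold 4.39), Meioc, a meiosis-specific factor, had 56.0 (5.5 control tags, fold 6.66) and Tex11, an X-linked meiosis gene, had 55.5 (1 control tag, fold 36.26). The Meioc peak began 450 bp from one end of the gene, inside it (chr11:102665801-102666958). The Sycp1 and Tex11 peaks lay inside their genes, more than 2 kb from either end. The share touched was higher in longer genes, as given below. The list's median length was 21.3 kb, against 17.3 kb for all protein-coding genes, and no adjustment for length was made. Of the 6, Dazl alone had a peak of 60 or more normalized tags, so at that limit the share was 1.69%. It was 5.08% with at most 5 control tags, with a fold of at least 8 or with widths under 1200 bp. Fewer peaks meet these tighter limits, and the share over all protein-coding genes is not given for them. The 1.59% belongs to the full class and is not their counterpart. The list was drawn up with earlier results of these data known.

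Promoter windows under tall compact peaks were few. A promoter window here is the stretch from 250 bases before to 50 after a RefSeq start, and 17 of 17273 protein-coding genes with such a window had one at least partly under a tall compact peak (0.0984%). The other protein-coding genes of the 21627, among them all on chromosome 18, had no window and could not be counted. The figure was 154 genes (0.892%) for tall wide peaks and 2779 (16.1%) for low compact peaks, which are those under 50 normalized tags, under 1500 bp and with at most 10 control tags. The classes differ in size, with 982, 2782 and 34698 peaks, and 24 of the 982 held a window. Counted as windows, 29 of 32619 lay under tall compact peaks (0.0889%), 224 (0.687%) under tall wide and 3773 (11.6%) under low compact peaks. Of the germline list, 48 genes have a window in the table: 3 were under a tall compact peak, 3 under a tall wide and 20 under a low compact peak.

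**Figure D1:**
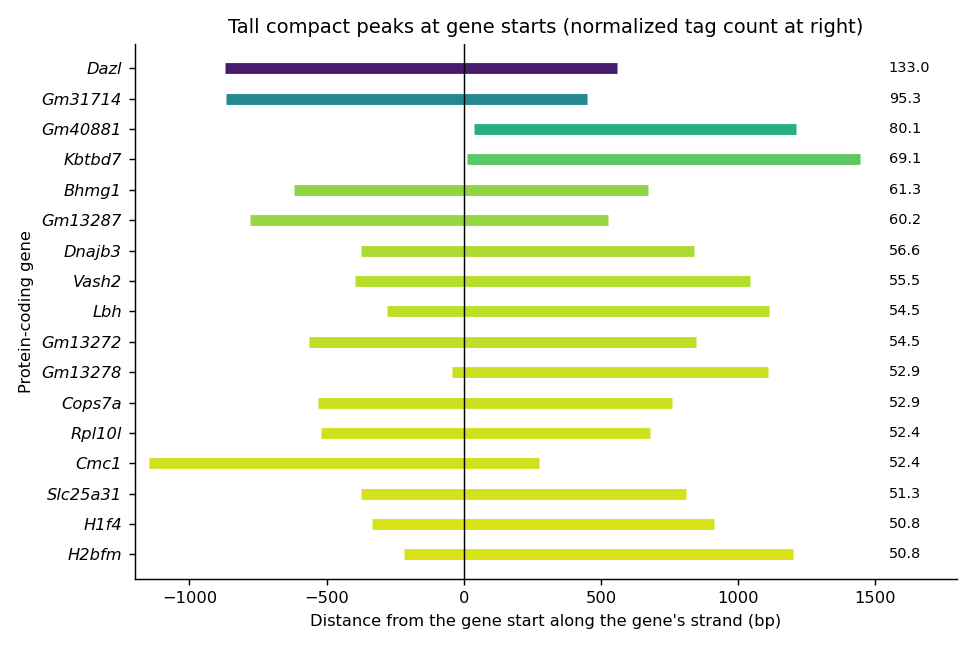
Each bar is a tall compact peak drawn against the start of a protein-coding gene whose promoter window it overlaps at least in part. Positions are in bp along the gene's strand, with the normalized tag count at the right. The peaks at Kbtbd7 and Gm40881 begin 11 and 36 bp inside the start. The Dazl peak, at 133.0, runs from -871 to 559 bp, and the other peaks shown have lower counts, down to 50.8.

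Besides the 5 genes shown, the other 12 protein-coding genes were chosen for mention after their values were seen, apart from Kbtbd7, H1f4 and Gm31714. Kbtbd7, an adaptor of cullin ubiquitin ligases, had 69.1 normalized tags (5.5 control tags, fold 8.21) from 11 bp inside its start, so only part of its promoter window was covered. H1f4, a linker histone, had 50.8 (2.5 control tags, fold 13.27), in a peak that also lay 523 bp from H2bc6. Vash2, a tubulin carboxypeptidase, had 55.5 (2 control tags, fold 18.13) and Cops7a, a subunit of the COP9 signalosome, 52.9 (6 control tags, fold 5.76). Lbh had 54.5, Cmc1 52.4 and H2bfm, a histone H2B variant on the X chromosome, 50.8. The predicted genes Gm31714 and Gm40881 had 95.3 and 80.1, with 4 and 10 control tags. Gm13272, Gm13278 and Gm13287, beside the interferon gene Ifnz on chromosome 4, had 54.5, 52.9 and 60.2. In 13 of the 17 genes a whole window lay inside the peak.

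The covered windows were rich in CG. Their median was 22 CG dinucleotides (quartiles 19 and 28, range 5 to 37) in 300 bases, with a GC content of 63.3%, against 7 (3 and 20) and 53.0% over all windows. Windows under tall wide peaks had a median of 15 and those under low compact peaks 18. Of 3 motifs searched on both strands, TGCCGC was in 1 of the 29 windows (3.45%, 0.0873 to 17.8%), that of Dazl, against 11.7% of all windows, 19.6% of those under tall wide and 18.0% of those under low compact peaks. GCGGGA was in 13 (44.8%, 26.4 to 64.3%), against 20.1%, 33.5% and 33.0% in the same order. CACGTG was in 4 (13.8%, 3.89 to 31.7%), Bhmg1 and Slc25a31 among them, against 7.20%, 10.3% and 9.94%. A match is a description of these letters alone, and windows that overlap share them.

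Imprinted genes were touched at 3 of 52 (5.77%, 1.21 to 15.9%), beside 1.59% of protein-coding genes. With at most 5 control tags or widths under 1200 bp it was 1 of 52 (1.92%), and the share of protein-coding genes at those limits is not given. Tall wide peaks, which are more numerous, touched 22 (42.3%), beside 5.18%. Kcnq1ot1, a long non-coding RNA that silences its neighbours in cis, and Kcnq1, the potassium channel gene it lies inside, shared 1 peak (chr7:143295019-143296344). It held 68.1 normalized tags (65 tags, 50.2 to 82.8) in 1325 bp, against 5.5 control tags (fold 8.09), and its far edge lay 203 bp inside the start of Kcnq1ot1. Snhg14, the host transcript of small nucleolar RNAs in the Prader-Willi region, had 3 peaks of 51.3 to 60.8 normalized tags. Their folds of 4.96 to 7.45, against 4.5 to 8 control tags, were below the median of the 982. Kcnq1ot1 and Snhg14 are not protein-coding, and of all long non-coding RNA genes 0.701% were touched. All 3 touched genes are longer than the list's median of 34.5 kb, and no adjustment for length was made. No imprinted gene of the list had a promoter window under a tall compact peak, while 10 had one under a tall wide peak.

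Zinc finger genes were touched at 9 of 462 (1.95%, 0.895 to 3.67%), close to the 1.59% of all protein-coding genes, while tall wide peaks touched 48 of them (10.4%). The 9 genes were served by 11 separate peaks. Zfp442 had 2, the taller of 78.6 normalized tags. Zfp978 had 4, of 50.3 to 69.1, of which the tallest was shared with Zfp991. Zfp934 followed at 65.0, Zfp46 and Zfp992 at 64.4 each, Zfp981 and Zfp993 at 56.0 from 1 shared peak, and Zbtb20 at 52.9. All of them but Zfp442, Zfp934 and Zbtb20 lie on chromosome 4. Some are near-identical copies, and no source used here says how reads that match several copies were placed.

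The protocadherins, clustered cell adhesion genes on chromosome 18, counted 24 of 57 touched (42.1%), yet from only 2 separate peaks. All 24 are Pcdha or Pcdhg genes, and the genes within each of these groups share their last exons. One of 59.2 normalized tags (chr18:36961450-36962827, 2 control tags, fold 19.33) lay in or near Pcdha1 to Pcdha6. Another of 55.5 (chr18:37762926-37764209, 5 control tags, fold 7.25) lay in or near 18 Pcdhg genes, Pcdhga1 and Pcdhgb7 among them. The count of genes is thus a count of overlapping gene models. Tall wide peaks touched 29 of the 57 and low compact peaks 56. A taller tall compact peak, of 65.5 normalized tags (chr18:37630096-37631382, 6 control tags, fold 7.13), lay between those 2 peaks. It was over the predicted genes Gm37013, Gm38666 and Gm38667 and touched no gene of the list. It was chosen for mention after its values were seen.

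Very long neuronal genes were touched at 7 of 20 (35.0%, 15.4 to 59.2%), from a list whose median length was 1117 kb. Nrxn3, a presynaptic neurexin, had 72.8 normalized tags, and Nlgn1, its postsynaptic partner of the neuroligin family, 71.2 at a fold of 4.9. Dlgap2, Dlg2, Dlgap1 and Lrp1b had 58.7, 57.6, 56.6 and 56.6, and Csmd3 51.9 with a control count of 0.5, the lowest value in the list. Over all protein-coding genes the share touched was higher in longer genes. It was 0.556% of 7740 genes under 10 kb, 0.727% of 8947 from 10 to 50 kb, 2.63% of 3951 from 50 to 200 kb, 8.91% of 763 from 200 to 500 kb and 27.9% (22.1 to 34.2%) of 226 beyond. Touched protein-coding genes had a median length of 131 kb, against 17.3 kb for all and 40.4 kb for those touched by tall wide peaks. A longer gene offers more room for a peak, and no adjustment for length was made.

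Among olfactory receptor genes 5 of 1106 had a tall compact peak (0.452%, 0.147 to 1.05%), beside the 1.59% of all protein-coding genes. These genes are short, with a median length of 0.95 kb. The share was close to the 0.556% (0.402 to 0.748%) of all protein-coding genes under 10 kb. The tallest peaks were at Olfr478 with 92.2 normalized tags, whose peak lay 3.51 kb away, and Olfr362 with 71.8. Olfr631 had 51.9, and Olfr1495 and Olfr165 had 50.8 each. Among vomeronasal receptors, with a median length of 0.96 kb, 2 of 353 were touched (0.567%), Vmn2r27 at 66.0 and Vmn1r30 at 55.5. Histone genes counted 2 of 67, H1f4 and H2bc6, from 1 peak.

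In 9 of the 18 gene lists no gene was touched: Hox genes (0 of 39), genes of the early cleavage embryo (0 of 26), intestinal stem cell genes (0 of 23), secretory (0 of 27) and enterocyte (0 of 22) genes, immune (0 of 18) and mesenchymal or endothelial (0 of 16) genes, nucleic acid sensing (0 of 26) and H3K9 silencing factors (0 of 30). A count of 0 in lists of this size allows shares of up to 7.69% (Hox) to 18.8% (mesenchymal or endothelial), taking 3 genes as the limit, and the exact intervals reach 9.03% and 20.6%. The share over all protein-coding genes, 1.59%, lies under these limits, so the counts of 0 do not set these lists apart. None of 36 markers of stem, secretory, enterocyte, immune and stromal cells was touched by a tall compact peak, beside that same 1.59%. A tall wide peak touched 1 of them, beside 5.18% of protein-coding genes. Setdb1 and Olfm4 had no peak of the 3 classes within 5 kb. Lgr5 had 4 low compact peaks, and Ascl2, a transcription factor of these stem cells, 1 tall wide peak.

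Most tall compact peaks lay between genes. The centre of 640 of the 982 was outside every annotated gene (65.2%, 62.1 to 68.2%), against 59.99% (58.1 to 61.8%) of 2782 tall wide and 43.1% (42.6 to 43.6%) of 34698 low compact peaks. A centre inside a protein-coding gene was found for 258 (26.3%, 23.5 to 29.1%), against 31.9% and 48.5%, and inside another gene for 84 (8.55%). Any overlap with a gene gave 264 peaks over protein-coding genes, 59 over lncRNAs, 24 over pseudogenes, 6 over other genes and 629 over none. Within 5 kb, 431 peaks (43.9%) had a gene of any kind, and together they touched 570 of 49550 genes (1.15%).

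Distance from protein-coding genes showed the same order. The median gap was 36.3 kb for tall compact peaks and 21.4 kb for tall wide peaks, while a low compact peak was typically in a gene or beside it, with a median of 31.5 bp. More than 100 kb separated 358 tall compact peaks (36.5%, 33.4 to 39.6%) from the nearest protein-coding gene, against 29.2% and 18.6%, and more than 500 kb separated 115 (11.7%), against 8.23% and 5.25%. The 5 farthest lay 1654 to 1820 kb away, with Pik3c3, Celf4, Cdh6, Tenm2 and Grik2 as nearest genes. Tall compact peaks had a median of 5 protein-coding genes within 500 kb, tall wide peaks 6 and low compact peaks 10.

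Few tall compact peaks were close to the start or the far end of a gene. For 44 of the 982, a protein-coding gene began or stopped within 2 kb (4.48%, 3.27 to 5.97%), against 13.3% (12.1 to 14.7%) of tall wide and 21.7% (21.3 to 22.1%) of low compact peaks. Measured from the peak's centre, which does not favour wide peaks, the shares were 4.18%, 10.2% and 20.1%. A peak lay over the start of a protein-coding gene in 15 cases (1.53%, 0.857 to 2.51%), against 5.03% and 6.53%. The starts used cover 17273 of the 21627 protein-coding genes, with none on chromosome 18 and stretches without any elsewhere. For instance, a peak inside Sntg1 on chromosome 1 lay 8908988 bp from the nearest start used. Peaks in such places could not be counted as over a start but stay in the totals of all classes. The 44 peaks were near ends of 53 genes. After Dazl, the tallest at a gene with a full name were at Fcgr3, an Fc receptor (77.0, 8.5 control tags), Tmem267 (76.0, 8.5 control tags), Kbtbd7, Fbxo33 (67.6), Gal3st1, which makes sulfatide (62.9), and Tmsb4x, thymosin beta on the X chromosome (61.8). Below Bhmg1 and Fbxo46 came Pcdha5 and Zxdb (59.2 each), Urm1, Cercam and Ccer1 (58.1 each) and Dnajb3.

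**Figure D2:**
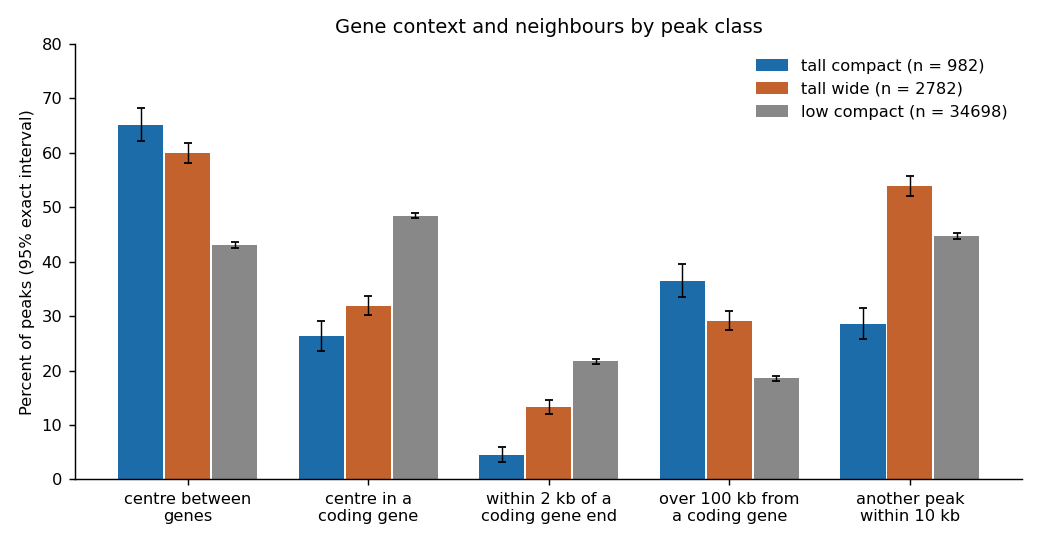
Bars give the percent of tall compact (n = 982), tall wide (n = 2782) and low compact (n = 34698) peaks in each setting, with 95% exact intervals as lines. Tall compact peaks have the highest share between genes, 65.2%, and the lowest within 2 kb of a gene end, 4.48%.

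Along the tag count the shares changed over a wide range and not at 50 alone. Among compact peaks with at most 10 control tags, the share between genes was 39.98% at 9 to 15 normalized tags, 45.4% at 20 to 30, 61.2% at 40 to 50, 62.3% (58.2 to 66.4%) at 50 to 60, 68.3% at 60 to 80 and 73.2% (59.7 to 84.2%) for the 56 peaks of 80 or more. The share near a gene end was 20.1% at 9 to 15, 24.0% at 15 to 20, 24.97% at 20 to 30, 11.4% at 40 to 50, 5.33% at 50 to 60 and 2.75% at 60 to 80. It was 7.14% for the 56 tallest, from 4 peaks (1.98 to 17.3%). Median width moved along with the tags, from 500 bp in the lowest range to 1283, 1366 and 1411.5 bp in the top 3. By width, 69.2% of tall compact and 42.7% of low compact peaks lay between genes under 1000 bp, 57.8% and 46.6% from 1000 bp, 66.8% and 45.8% from 1200 bp, and 66.9% and 34.5% from 1350 bp up. The part of width in the class difference was not tested.

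**Figure D3:**
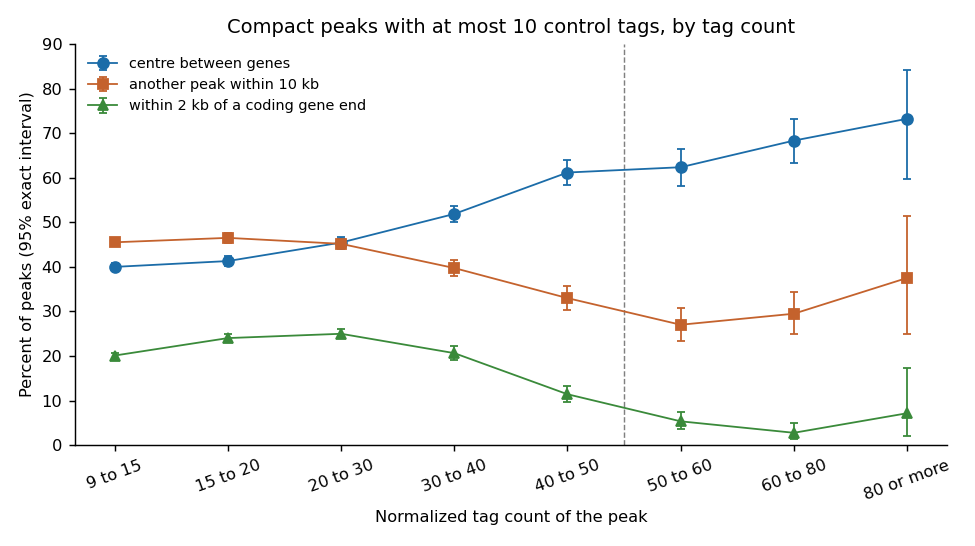
Percent of compact peaks (under 1500 bp, at most 10 control tags) between genes, within 2 kb of a gene end and with another peak within 10 kb, by normalized tag count, with 95% exact intervals. The share between genes goes from 39.98% to 73.2%, and the last 3 ranges are the tall compact peaks.

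Tag counts of the 982 peaks had a median of 58.1 (quartiles 53.4 and 66.0), from 50.3 to 133.0, and 6 reached 100. Width ran from 500 to 1499 bp with a median of 1322 (1205 and 1414), and 751 peaks (76.5%) were 1200 bp or wider. Per kb they held a median of 45.6 normalized tags, against 34.3 in tall wide and 22.3 in low compact peaks. Control tags had a median of 3.5 (2.5 and 5.5), or 2.82 per kb, against 1.81 and 1.00 per kb. The median fold over the control was 10.475 (7.78 and 16.525), against 12.515 and 12.32. Of these classes, the one with the most ChIP tags per kb also had the most control tags per kb. The choice limited tags, width and control tags, so this order is a description only.

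The narrowest members stood apart within the class. The 39 under 1000 bp had a median of 7.5 control tags and a fold of 5.39, while the 405 from 1350 bp up had 3.5 and 11.44. The densest peak (chr8:129300629-129301225) held 100 normalized tags into 596 bp, or 167.8 per kb, with 7.5 control tags and a fold of 8.71. Only 5 members were exactly 500 bp, against 12734 low compact peaks (36.7%). Whether signal from both libraries at the same place shaped these narrow peaks was not tested. The highest folds, 92.37 at chr6:11748344-11749809 and 88.27 at chr9:82475634-82476916, had control counts of 0.5, as 28 members did (2.85%). These folds depend on that lowest value.

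**Figure D4:**
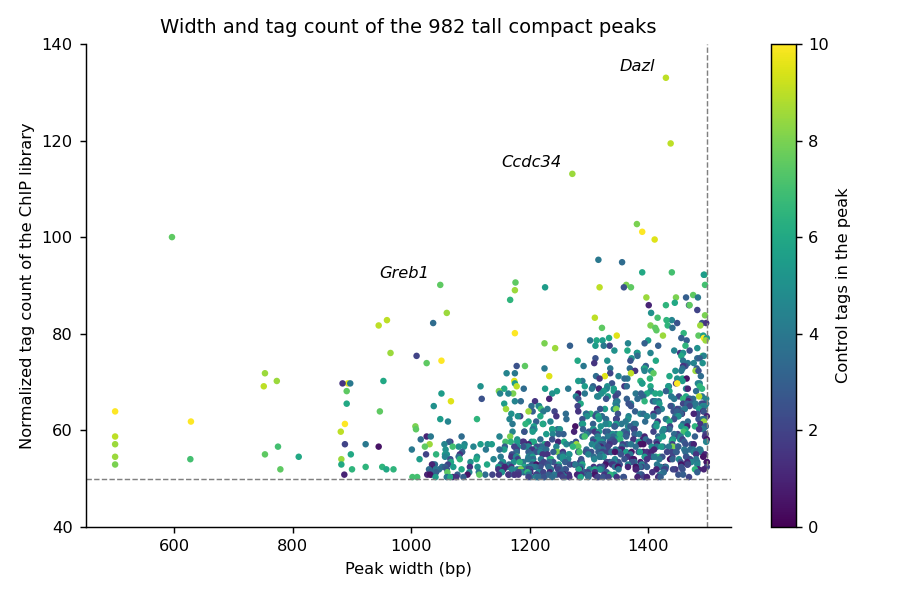
Each of the 982 tall compact peaks is a point, by width in bp and normalized tag count, with colour for its control tags. Most lie between 1200 and 1499 bp and under 80 normalized tags, and the Dazl peak at 133.0 is the highest.

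At the limits themselves, about as many peaks lay just inside as just outside for tags and width. From 50 to 51 normalized tags there were 77 members, 59.7% between genes, and from 49 to under 50 there were 84 peaks that missed the limit, 66.7% between genes. From 1480 to 1499 bp there were 74 members (51.3 to 92.2 normalized tags, 74.3% between genes), and from 1500 to 1519 bp 73 peaks just outside (50.3 to 134.6, 71.2%). A control count of 9.5 or 10 was found in 15 members, and 8 peaks that met the other limits had 10.5 or 11. In all, 58 peaks were kept out by the control limit, with 65.0 to 6957.8 normalized tags.

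Among the 21 tallest members, counting ties at the 20th place, 15 were centred between genes and 5 lay in a single stretch of chromosome 6. After Dazl (127 tags, 106 to 151) came 1 of that stretch with 119.4 normalized tags (114 tags, 94.0 to 137), then a peak inside Ccdc34, a coiled-coil gene, with 113.1 (108 tags, 88.6 to 130). These 3 intervals overlap, so their order is not settled by the counts. Ccdc34 had 8.5 control tags and a fold of 8.69 (chr2:110156771-110158043). A peak at Gm40371 and Gm40369, beside the small RNA gene Rn4.5s, had 101.1 with the full 10 control tags (fold 6.6).

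Further down the tallest, a peak 403 kb from Ccdc54 (chr16:50994092-50995448) had 94.8 normalized tags with 3.5 control tags (fold 17.69). One 25.2 kb from Mup18, a major urinary protein gene, had 92.7, and one 38.1 kb from Speer4c had 92.2. Greb1, a hormone-responsive gene, and Veph1 each had a peak of 90.1 inside the gene. Another of 90.1 overlapped the pseudogene Smarca5-ps, with its centre outside it. Gm13141, 11.1 kb from Zfp982, had 90.6. Thada had 89.6 at 2.5 control tags, whose fold of 23.4 was the highest among these 21. Peaks 6.74 kb from Gm38510 and 20.9 kb from Gm28710 also had 89.6.

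Another peak of the list lay within 10 kb of 280 of them (28.5%, 25.7 to 31.4%), against 53.9% (52.0 to 55.7%) of tall wide and 44.8% (44.2 to 45.3%) of low compact peaks. The median gap to the next peak was 27.0 kb, against 7.24 kb and 12.6 kb. Another tall compact peak within 10 kb was found for 29 (2.95%) and within 50 kb for 76 (7.74%), in 31 runs of which 27 were pairs.

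The exception was a run of 13 in 114 kb between Hrh1, a histamine receptor, and Atg7, an autophagy enzyme (chr6:114511053-114625068). Its members had 51.9 to 119.4 normalized tags (median 75.4), 1.5 to 9.5 control tags and folds of 4.74 to 28.74. The stretch held 35 peaks in all, 7 of them tall and wide. Next came 3 runs of 3: at Snhg14 on chromosome 7, at the predicted genes beside Ifnz on chromosome 4 (chr4:88779286-88803781, 52.9 to 60.2 normalized tags) and at 5S ribosomal RNA genes near Gas8 on chromosome 8. Without the 13 members, 64.7% of the remaining 969 lay between genes.

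Genes with more than 1 tall compact peak were few. The immunoglobulin light chain locus Igk had 4 peaks of 51.3 to 67.0 normalized tags, and the heavy chain locus Igh 2 of 51.9 to 66.5 at folds of 14.48 and 33.87. Tmem267 had 3 (54.0 to 76.0, folds 5.03 to 7.13). Pairs were found at Dnm3, a dynamin (52.4 and 72.8), Luzp2 (53.4 and 73.3, with 2.5 control tags each), Gas8, Zfp442 and the pseudogene Mup-ps1.

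Chromosomes differed in their share of the class. Chromosome 6 had the highest density, 0.528 per Mb (79 peaks), and 0.441 without the run of 13. Chromosome 3 had 0.513 (82 peaks), X 0.445 (76) and chromosome 7 0.440, and the lowest were chromosomes 11 (0.180, 22 peaks), 15 (0.221) and 9 (0.249). As a share of each chromosome's peaks, tall compact peaks were 4.26% (3.40 to 5.25%) on chromosome 3, 3.98% on 6 and 3.83% (3.03 to 4.78%) on X, but 0.908% (0.570 to 1.37%) on 11. Lengths in Mb are the last position seen in the peak list or the gene table.

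**Figure D5:**
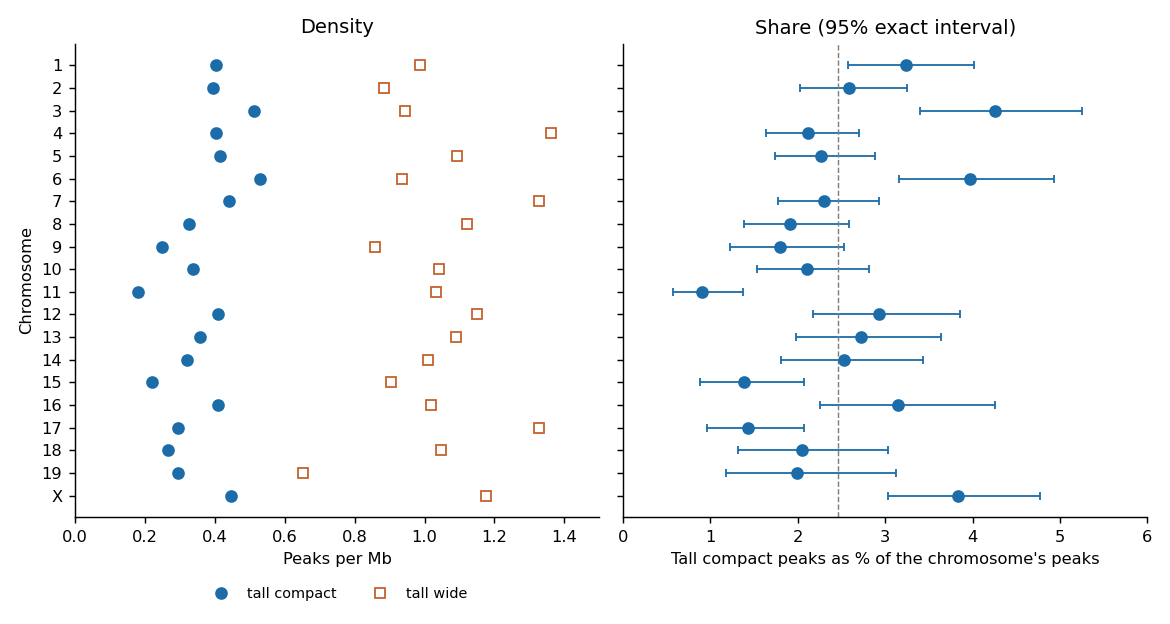
The left panel gives tall compact and tall wide peaks per Mb for each chromosome, and the right panel the tall compact peaks as a percent of the chromosome's peaks, with 95% exact intervals and a dashed line at 2.46%. The intervals of chromosomes 1, 3, 6 and X lie to the right of the line and those of 11, 15 and 17 to the left.

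On X the density of tall compact peaks was 1.21 times that of the autosomes (0.943 to 1.53), and that of tall wide peaks 1.12 times (0.967 to 1.30), intervals that both include 1. For low compact peaks the ratio was 0.710 (0.675 to 0.747). The labels do not give the sex of the mice, which sets the number of X copies. Across the 20 chromosomes, the density of tall compact peaks had a correlation of r = -0.33 (rho = -0.29) with the density of protein-coding genes, against 0.75 (0.81) for all peaks and 0.07 (-0.03) for tall wide peaks. The points share 1 library and are given as a description.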

How the data were processed

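One H3K9me3 ChIP library and 1 control library of sorted mouse intestinal stem cells gave 1 deposited peak list. Per the submitters' processing notes, the tools are Bowtie2 2.2.8 and HOMER 4.10.1 and the build is named as GRCm38 and mm10. No source used here gives the caller's options, the handling of repeated reads or the number of reads. Per the file headers, the normalized tag count and the control tags are coverage signals, the first scaled to a library total that is not stated. The score and the p-value of each peak are the authors' own, as is the fold, the deposited ratio of scaled ChIP tags to control tags. The highest p-value among the members was 3.19e-11. No fold in the list was under 4.

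Tags were recovered from steps of 0.5 tag: all normalized tag counts under 30 were whole multiples, within 0.1 step, of 0.5238. Members, and the lists of genes, were chosen with earlier results of these data known. Gene spans came from the RefSeq table for GRCm38.p6 and starts and strands from its promoter table. A gene was counted as touched with a peak in its span or within 5 kb. Of 2435 genes given in 18 lists, 2428 were matched. The result of 1 list is not reported here. The genes named are those at the 20 tallest members, up to 8 per list, the 15 genes with a full name whose end lies within 2 kb of the tallest members, genes touched by several members, and Setdb1, Lgr5, Olfm4 and Ascl2. Others are said to be chosen after their values were seen. Alternatives were tag limits of 60, widths under 1200 bp, control limits of 5, folds of 8, other distances and merged or left-out members. Python 3.11.15, pandas 2.3.3, numpy 2.4.6, scipy 1.17.1 and matplotlib 3.10.9 were used, and the interval code was tested on simulated data. Peaks on Y and on unplaced scaffolds were left out of the class.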

Additional observations from a re-analysis of the deposited data

Results flagged for a closer look

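Outside chromosomes 1 to 19 and X, 13 peaks met the same limits of tags, width and control, 3 of the 86 peaks on Y and 10 of the 147 on unplaced scaffolds. They came up as signal in data that no comparison above used. The tallest was on Y, with 103.2 normalized tags in 1311 bp against 7 control tags (fold 9.63), and the next on a scaffold assigned to chromosome 1, with 100.6 against 8.5 (fold 7.73).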

How the results depend on the processing

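Of 66 values recomputed under other settings, 53 stayed within the counting interval of the reported one (counts of peaks within 1.5 times) and 13 did not. The share of all protein-coding genes touched is not given for the smaller sets of peaks, and the 1.59% above is that of all 982. With at least 60 normalized tags there were 419 peaks, 69.0% of them between genes, and 1.69% of germline genes were touched. With widths under 1200 bp there were 231 peaks: 59.7% lay between genes, 30.3% in a protein-coding gene and 33.8% had another peak within 10 kb, the ratio of X to autosomes was 0.859, 0.433% of zinc finger genes were touched and the share of windows with TGCCGC was 0.0%. With at most 5 control tags that motif share was also 0.0%, since the Dazl peak has 9. Within 5 kb of a gene end lay 7.84%, and 18.2% had a neighbour within 5 kb, both by the change of distance itself. Other causes were not tested. All 10 values with a fold of at least 8 (715 peaks) stayed within their intervals, as did the 6 without the chromosome 6 run, an alternative chosen after seeing the data, like the distance from the peak centre (4.18%). No paired analysis was possible because the series has 1 ChIP and 1 control library and the results come from no test. Depth limits single peaks: a member near the limit rests on about 48 to 50 tags.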

Other observations

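Ribosomal and transfer RNA genes and a microRNA pair, chosen for mention after their values were seen, also lay near tall compact peaks. Of 63 annotated ribosomal RNA genes on these chromosomes, 16 were touched (25.4%, beside 1.15% of all genes), by 5 peaks on chromosomes 6 and 8 with 51.9 to 101.1 normalized tags. Their folds of 4.39 to 6.77, with 5 to 10 control tags, were below the class median, and copies of the 5S genes are near-identical. The tallest of the 5, on chromosome 6 with 101.1 normalized tags and 10 control tags, lay at Rn4.5s. That gene is annotated as ribosomal but is the small RNA gene named above, so not all of the 16 are ribosomal. In the 5S cluster on chromosome 8 the run of 3 covered chr8:123539224-123550504. Of transfer RNA genes 9 of 408 were touched (2.21%), by 1 peak.

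One peak of 58.1 normalized tags (chr2:29844976-29846329, 6.5 control tags, fold 5.84), which overlaps the end of Urm1 and lies mostly inside Cercam, covered Mir219a-2 (minus strand) and Mir219b (plus strand), which lie on opposite strands of 1 locus. Their mature sequences from RefSeq on GRCm38.p6 are shown with the seed, bases 2 to 8, in capitals, because each of the 3 has a seed of its own.
mmu-miR-219a-5p: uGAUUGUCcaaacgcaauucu
mmu-miR-219b-5p: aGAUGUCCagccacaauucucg
mmu-miR-219b-3p: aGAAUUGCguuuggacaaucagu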
